A study of Mus musculus with 26 samples.

Results

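The RNA-binding protein hnRNPK was precipitated from mouse liver, and 7 numbered transcript clusters, out of 31469 in the deposited tables, are described here. They were selected on measured values of these libraries: the RNA recovered with hnRNPK, relative to total liver RNA, differed between obese and lean mice in the nuclear or the cytoplasmic extract. All rows with the 7 cluster numbers were taken and their counts summed per cluster. Each cluster is named by its most counted transcript: uc008mqj.1, uc009fkv.1, uc008dcz.2, uc007dmt.2, uc008qml.1, uc007xrx.2 and uc012cre.1. All 7 passed the filter on low counts, which kept 13516 clusters. The tables used here do not pair these identifiers with gene symbols, so no gene name, role or sequence is given for any of them, and the tissue label could not be checked against marker genes.

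hnRNPK is an abundant protein of the heterogeneous nuclear ribonucleoprotein family. It binds RNA and single-stranded DNA, mainly at stretches rich in cytosine, through its KH domains. It moves between nucleus and cytoplasm and takes part in transcription, splicing, RNA stability and translation. Immunoprecipitation (IP) of the protein from an extract, followed by sequencing of the RNA that comes with it, gives the share of each transcript among the RNA recovered.

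Livers of 3 mouse groups were compared. The wild-type group was C57BL/6J on a normal diet, the second group was C57BL/6J on a high-fat diet, and the third was B6.V-Lepob/J on a normal diet. The last strain lacks leptin and becomes obese, and is called ob/ob below. Age, sex and the length of the diet are not given in the sources used here. hnRNPK was precipitated from a cytoplasmic supernatant and from a salt extract of the nuclei, each first cleared over beads with control IgG, and total liver RNA was sequenced beside it. Every mouse group had 2 cytoplasmic IP libraries, 2 nuclear IP libraries and 4 total RNA libraries. The total RNA libraries carry 2 replicate numbers with 2 libraries each, and those sharing a number were summed, so that each of the 9 groups had 2 units. One IgG library per compartment, from mixed mice, served as background. Neither extract had total RNA as its input, and a ratio of IP to total RNA also carries what was lost or kept in making the extract. In bulk tissue, fewer cells of a type and less RNA per cell cannot be told apart.

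The 12 total RNA libraries summed to between 25597307 and 41731910 counts each. IP libraries from the cytoplasm summed to between 8834063 and 12068891 counts, and nuclear ones to between 5336060 and 10581089. IgG gave 338469 counts from the cytoplasm and 3116786 from the nucleus. Levels are CPM, which express counts per library on a common total, with TMM scaling, a factor per library that aligns the bulk of the clusters. Both IP units of high-fat diet replicate 2 stood apart in this factor, at 0.656 in cytoplasmic and 0.616 in nuclear IP, against 0.828 to 1.07 in the other 10 IP units. With scaling by library size alone, the median of all clusters in the high-fat diet difference of nuclear IP over total RNA moved from -0.04 to -0.57 on the log2 scale. Values from these units are therefore read relative to the bulk of clusters.

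Per length, the 7 clusters covered a wide range of abundance in total RNA. Mean TPM, the deposited length-corrected level, over the 6 total RNA units was 221 for uc012cre.1, 132 for uc009fkv.1, 124 for uc008mqj.1, 57.4 for uc008qml.1, 54.4 for uc007dmt.2, 25.8 for uc008dcz.2 and 17.8 for uc007xrx.2. Neighbours in this order whose ranges overlapped were uc009fkv.1 (124 to 137 TPM) with uc008mqj.1 (98.8 to 149 TPM), uc008qml.1 (48.6 to 69.4 TPM) with uc007dmt.2 (42.4 to 66.5 TPM), and uc008dcz.2 (23.5 to 29.2 TPM) with uc007xrx.2 (7.56 to 24.9 TPM). In cytoplasmic IP the order was led by uc009fkv.1 at a mean of 244 TPM and uc008qml.1 at 113 TPM, and uc007dmt.2 was lowest at 8.96 TPM. The main transcripts ranged from 488 nt in uc009fkv.1 and 578 nt in uc008qml.1 to 5177 nt in uc008mqj.1.

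A set of 4 clusters, uc008mqj.1, uc009fkv.1, uc008dcz.2 and uc007dmt.2, had higher nuclear IP levels in both obese groups than in wild type, while their total RNA was not higher. Cluster uc008mqj.1 had 50.6 and 43.2 CPM in nuclear IP of wild type, 133 and 129 CPM on high-fat diet, and 119 and 119 CPM in ob/ob. All 4 obese units lay above both wild-type units. Its total RNA was 354 and 270 CPM in wild type, 300.1 and 289 CPM on high-fat diet and 260 and 234 CPM in ob/ob, so the ob/ob units were lower than wild type and the high-fat diet units fell between the wild-type ones. In cytoplasmic IP the same cluster spread less, with 79.4 and 89.9 CPM in wild type, 90.9 and 105 CPM on high-fat diet and 107 and 119 CPM in ob/ob.

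Clusters uc009fkv.1 and uc008dcz.2 resembled each other. In nuclear IP, uc009fkv.1 had 13.9 and 10.8 CPM in wild type, 37.3 and 32.2 CPM on high-fat diet and 15.7 and 17.4 CPM in ob/ob. The high-fat diet units stood clear of the other groups, and the ob/ob units lay just above wild type. Cluster uc008dcz.2 had 11.4 and 10.2 CPM in wild type, 27.2 and 31.9 CPM on high-fat diet and 18.5 and 21.0 CPM in ob/ob. With TMM scaling the 3 groups did not overlap. In deposited TPM the high-fat diet units, at 14.95 and 12.48, overlapped the ob/ob units, at 11.05 and 13.92. Total RNA spanned 25.5 to 32.9 CPM in uc009fkv.1 and 29.1 to 41.1 CPM in uc008dcz.2 over the 6 units, and in neither were the obese units higher than every wild-type unit. Their cytoplasmic IP levels were several times their nuclear ones. Cluster uc009fkv.1 had 66.8 and 74.3 CPM in cytoplasmic IP of wild type, 94.1 and 107 CPM on high-fat diet and 87.7 and 104 CPM in ob/ob. Cluster uc008dcz.2 had 59.7 and 54.9 CPM in wild type, 95.2 and 95.7 CPM on high-fat diet and 98.3 and 111 CPM in ob/ob. In both clusters the 4 obese units exceeded the wild-type units in this compartment too.

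In cluster uc007dmt.2 the total RNA and the nuclear IP moved in opposite directions. Total RNA was 46.6 and 50.2 CPM in wild type, 37.8 and 28.6 CPM on high-fat diet and 29.4 and 33.5 CPM in ob/ob, all obese units being lower. Nuclear IP was 9.81 and 9.37 CPM in wild type, 19.6 and 19.8 CPM on high-fat diet and 15.0 and 12.3 CPM in ob/ob, all obese units being higher. Cytoplasmic IP stayed between 8.97 and 11.6 CPM in all 6 units, with the groups overlapping. Between ob/ob and wild type, cytoplasmic IP differed by 0.20 on the log2 scale, and cytoplasmic IP over total RNA by 0.77.

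Cluster uc008qml.1 was nearly missing from nuclear IP of wild type. Its expected counts there were 0 and 5.35, against 26.9 and 1.70 on high-fat diet and 52.2 and 57.6 in ob/ob, or 0 and 0.593 CPM, 4.45 and 0.608 CPM, and 9.27 and 7.52 CPM. The ob/ob units were high, and the high-fat diet units split, 1 of them at the wild-type level. From summed counts of 110 in ob/ob and 5 in wild type the ratio was 32.3 (exact 95% interval 13.4 to 101, counting error only). For high-fat diet, with 29 counts, the ratio was 12.1 (4.64 to 40.1), which rests on replicate 1. Both intervals pool the units of a group. Differences of this kind chose the cluster, so the intervals are no test of them. Total RNA was 14.7 and 14.2 CPM in wild type, 16.9 and 15.8 CPM on high-fat diet and 14.3 and 11.8 CPM in ob/ob. In cytoplasmic IP, where counts were ample, the cluster had 31.0 and 26.2 CPM in wild type, 61.3 and 72.1 CPM on high-fat diet and 53.7 and 56.1 CPM in ob/ob, and the obese units lay well above wild type.

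In clusters uc007xrx.2 and uc012cre.1, IP relative to total RNA was lower in ob/ob than in wild type. Cluster uc007xrx.2 was the least abundant, and its total RNA was higher in the obese groups, at 5.79 and 4.51 CPM in wild type, 12.4 and 10.1 CPM on high-fat diet and 10.2 and 11.2 CPM in ob/ob. Its nuclear IP did not follow, with 22 and 18 CPM in wild type, 20.3 and 23.1 CPM on high-fat diet and 13.9 and 12.6 CPM in ob/ob. With TMM scaling only the ob/ob units were below wild type there. In deposited TPM the high-fat diet units, at 27.72 and 22.37, were also below wild type, at 36.8 and 28.69. Cytoplasmic IP was 15.6 and 14.5 CPM in wild type, 32.7 and 23.1 CPM on high-fat diet and 12.7 and 14.3 CPM in ob/ob, so on high-fat diet the cytoplasmic IP and the total RNA were both high, and in ob/ob the total RNA alone was.

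Cluster uc012cre.1 was low in ob/ob IP with no matching difference in total RNA. Cytoplasmic IP had 79.1 and 74.2 CPM in wild type, 69.5 and 66.9 CPM on high-fat diet and 29.0 and 30.8 CPM in ob/ob. Nuclear IP had 86.4 and 76.1 CPM in wild type, 84.9 and 67.2 CPM on high-fat diet and 43.3 and 46.6 CPM in ob/ob. With TMM scaling the ob/ob units were separate from the others in both compartments, and the high-fat diet units lay at or near wild type. In deposited nuclear TPM, high-fat diet replicate 2, at 46.37, lay below the ob/ob units, at 47.89 and 56.7. Wild type had 107.92 and 89.92 TPM there, and high-fat diet replicate 1 had 86.13. Total RNA was 223 and 185 CPM in wild type, 184 and 187 CPM on high-fat diet and 196 and 199 CPM in ob/ob.

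**Figure D1:**
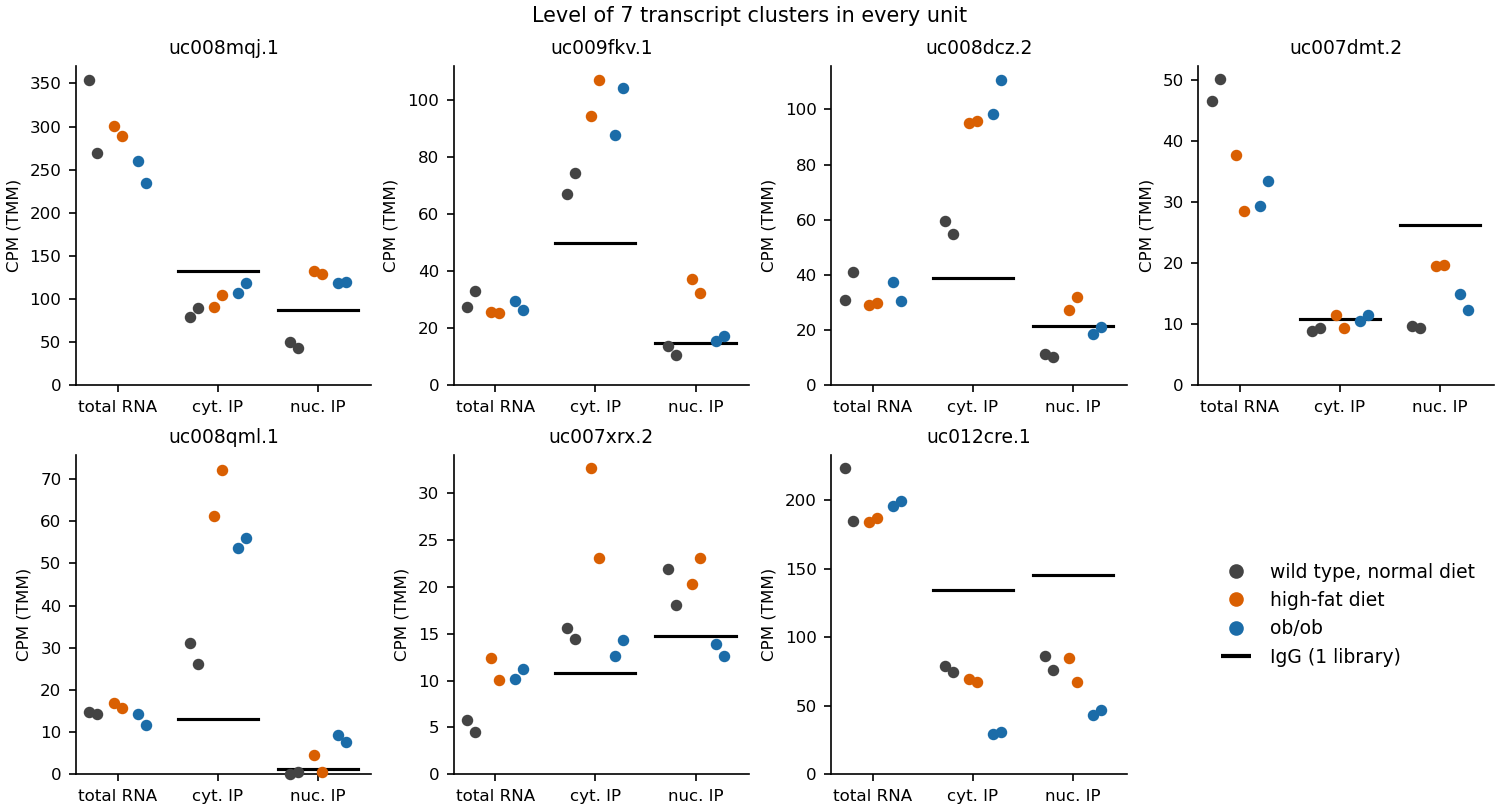
Level of each cluster in every unit, in CPM with TMM scaling on a linear axis from 0, for total RNA, cytoplasmic IP and nuclear IP; each point is 1 unit (2 per group) and the black line is the single IgG library of the compartment. Nuclear IP points of uc008mqj.1 lie at 43.2 to 50.6 CPM in wild type and at 119 to 133 CPM in the obese groups, and those of uc012cre.1 lie below the IgG line in both compartments.

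Set against the mean total RNA of the same mouse group, the IP units gave the log2 ratios by which the clusters had been picked. In nuclear IP, the ratios of uc008mqj.1 were -2.61 and -2.84 in wild type, -1.15 and -1.19 on high-fat diet and -1.05 and -1.05 in ob/ob. Those of uc009fkv.1 were -1.10 and -1.47 in wild type, 0.54 and 0.34 on high-fat diet and -0.83 and -0.68 in ob/ob. All obese units lay above both wild-type units in 4 clusters, uc008mqj.1, uc009fkv.1, uc008dcz.2 and uc007dmt.2, an arrangement found in 12.3% of all clusters tested. In cytoplasmic IP the same held for 5 clusters, these 4 and uc008qml.1, where 18% of all clusters were so arranged. In uc008qml.1 both ob/ob units and 1 of the high-fat diet units lay above both wild-type units in nuclear IP. Both ob/ob units did so in 27.2% of all clusters. Cluster uc007xrx.2 had all 4 obese nuclear units below wild type, as did 12% of clusters, with 2.1 and 1.81 in wild type, 0.86 and 1.05 on high-fat diet and 0.38 and 0.24 in ob/ob. Its ob/ob units were also below wild type in cytoplasmic IP, as were those of uc012cre.1 (16.4% of all clusters), and uc012cre.1 had its ob/ob units below wild type in nuclear IP too (20.4%). These shares are given for scale only, because the arrangement is part of what picked the clusters.

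**Figure D2:**
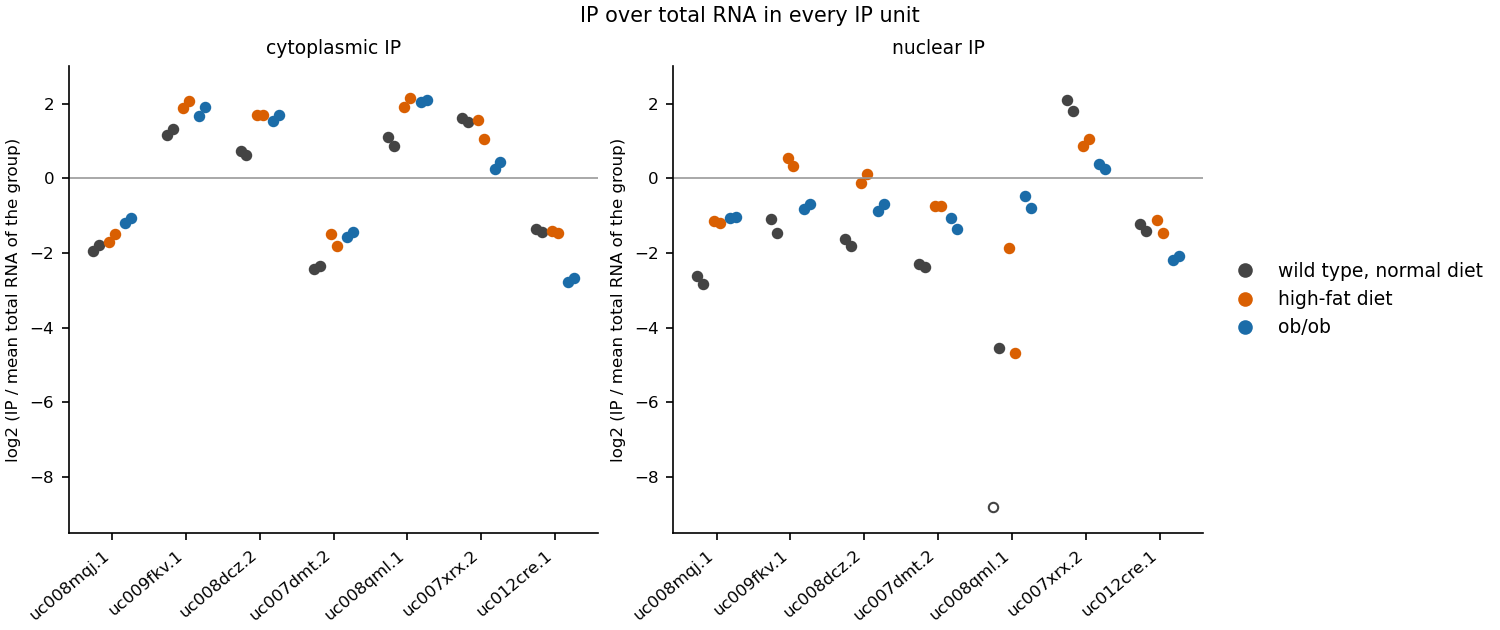
Log2 ratio of each IP unit to the mean total RNA of its mouse group (CPM with TMM scaling, prior count 1), with cytoplasmic IP on the left and nuclear IP on the right; each point is 1 unit, and the open circle is the wild-type nuclear unit of uc008qml.1 with 0 counts, whose position depends on the prior count. Wild-type nuclear points lie lowest for uc008mqj.1, uc009fkv.1, uc008dcz.2 and uc007dmt.2 and highest for uc007xrx.2.

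The differences between mouse groups in IP over total RNA, fitted over all clusters with edgeR, are given as a description with no test, since they chose the clusters. For ob/ob minus wild type in nuclear IP they were 1.61 ± 0.23 (log2, SE) for uc008mqj.1, 5.08 ± 0.73 for uc008qml.1, 1.05 ± 0.24 for uc007dmt.2, 0.88 ± 0.23 for uc008dcz.2, 0.46 ± 0.24 for uc009fkv.1, -0.88 ± 0.21 for uc012cre.1 and -1.72 ± 0.29 for uc007xrx.2. Of these, uc008mqj.1 and uc008qml.1 were past edgeR's adjusted p of 0.05, and they alone make up the 0.0148% of all clusters that were. For high-fat diet minus wild type they were 1.71 ± 0.24 for uc009fkv.1, 1.71 ± 0.23 for uc008dcz.2, 1.56 ± 0.24 for uc007dmt.2, 1.55 ± 0.23 for uc008mqj.1, 3.32 ± 0.87 for uc008qml.1, -1.03 ± 0.28 for uc007xrx.2 and 0.03 ± 0.21 for uc012cre.1. The first 4 were past the threshold, and they alone make up the 0.0296% of all clusters that were. Because such differences chose the clusters, these calls carry no support of their own. By library size no cluster was called in either difference, so these calls were lost, and leaving out 1 unit gave 0 to 4 calls for ob/ob and 0 to 8 for high-fat diet. With scaling by library size alone, the 4 high-fat diet values were 1.18, 1.15, 1.02 and 1.02, and relative to the median of all clusters 1.74, 1.71, 1.59 and 1.58. Without high-fat diet nuclear replicate 2 they were 1.84, 1.63, 1.59 and 1.6. The value of uc008qml.1 rested on single libraries: for ob/ob it was 3.92 without wild-type nuclear replicate 1 and 11.3 without replicate 2, which leaves 0 counts in wild type, and for high-fat diet it was 1.01 without high-fat diet nuclear replicate 1 and 9.56 without wild-type nuclear replicate 2.

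In the cytoplasm the high-fat diet differences of the 4 clusters first named were smaller, from 0.24 to 0.97. For ob/ob minus wild type the cytoplasmic values were 0.65 ± 0.22 for uc008mqj.1, 0.45 ± 0.22 for uc009fkv.1, 0.84 ± 0.22 for uc008dcz.2 and 0.77 ± 0.24 for uc007dmt.2. Those of uc009fkv.1 and uc008dcz.2 lay within the SE of their nuclear values, and by library size the order turned, with 0.47 against 0.42 and 0.87 against 0.85. Cluster uc008qml.1 had 0.98 ± 0.43, uc007xrx.2 -1.31 ± 0.28 and uc012cre.1 -1.42 ± 0.21. For high-fat diet the 7 values ran from -0.28 ± 0.28 in uc007xrx.2 to 0.99 ± 0.43 in uc008qml.1, with -0.09 ± 0.21 in uc012cre.1. None of the 7 was past the threshold in either cytoplasmic difference, where edgeR called 0.0074% of clusters in each. Whether the nuclear and the cytoplasmic differences of a cluster differ from each other was not tested.

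Averaged over the 3 mouse groups, the clusters fell into 3 kinds of compartment pattern. This average gives the 3 groups equal weight and is a separate contrast from the differences between them, though it uses the same libraries, and it was tested. The exception is uc008qml.1 in nuclear IP, where the few wild-type counts that picked the cluster also set the average, so its nuclear averages are values only. By edgeR's quasi-likelihood test with Benjamini-Hochberg adjustment, all 7 clusters passed in cytoplasmic IP over total RNA, as did 77.2% of all clusters. Of the 7, 4 were higher and 3 lower, where 36% of all clusters were higher and 41.2% lower. The median of the 7 was 1.07, against -0.11 for all clusters. In nuclear IP over total RNA, where 74.7% of all clusters passed, 1 of the other 6 was higher and 5 lower, while 32.2% of all clusters were higher and 42.5% lower, with medians of -1.43 for the 7 and -0.18 for all. In nuclear over cytoplasmic IP, 64.6% of all clusters passed: of the other 6, 2 were higher and 2 lower, while 31% of all were higher and 33.6% lower.

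On average, clusters uc009fkv.1, uc008dcz.2 and uc008qml.1 were enriched over total RNA in cytoplasmic IP, and the first and second were depleted in nuclear IP. Cytoplasmic IgG was also above mean total RNA in uc009fkv.1 and uc008dcz.2, though not in uc008qml.1, as given below. For uc009fkv.1 the average was 1.67 ± 0.09 in cytoplasmic IP over total RNA (log2, SE, edgeR adjusted p = 4.5e-10) and -0.52 ± 0.10 in nuclear IP (adjusted p = 0.00018). For uc008dcz.2 the corresponding averages were 1.33 ± 0.09 (adjusted p = 4.0e-09) and -0.83 ± 0.09 (adjusted p = 1.4e-06). The nuclear depletion was not seen on high-fat diet with TMM scaling, where the mean log2 ratios of uc009fkv.1 and uc008dcz.2 were 0.44 and -0.00045. By library size these means were -0.28 and -0.72. For uc008qml.1 the cytoplasmic average was 1.70 ± 0.18 (edgeR adjusted p = 5.2e-07). Its nuclear value was -2.96 ± 0.27, resting on few counts and reaching -5.04 without wild-type nuclear replicate 2. The nuclear over cytoplasmic averages of uc009fkv.1 and uc008dcz.2 were -2.19 ± 0.10 and -2.16 ± 0.10 (edgeR adjusted p = 1.8e-10 and 1.7e-10). In uc008qml.1 the value was -4.66 ± 0.26, and -6.74 without that same unit. All 6 cytoplasmic IP units exceeded all 6 nuclear IP units in each of these clusters.

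Clusters uc008mqj.1, uc007dmt.2 and uc012cre.1, each with its transcripts summed, were depleted in both compartments. Their higher nuclear recovery in obese mice, where present, remained under the total RNA level of the cluster. Their averages were -1.53 ± 0.09, -1.85 ± 0.10 and -1.86 ± 0.09 in cytoplasmic IP over total RNA, and -1.65 ± 0.09, -1.43 ± 0.10 and -1.57 ± 0.09 in nuclear IP over total RNA, with edgeR adjusted p at most 5.2e-09. In uc012cre.1 these averages set different transcripts against each other. Most of its IP counts came from uc012crf.1, which was scarce in total RNA, as given below. Nuclear over cytoplasmic IP was 0.42 ± 0.11 for uc007dmt.2 (adjusted p = 0.0029) and 0.28 ± 0.09 for uc012cre.1 (edgeR adjusted p = 0.011). The latter call was lost without high-fat diet nuclear replicate 1, at 0.21 with an adjusted p of 0.053. For uc008mqj.1 it was -0.12 ± 0.09 (95% interval -0.30 to 0.07, edgeR adjusted p = 0.29), with a positive sign, 0.04, under scaling by library size.

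Cluster uc007xrx.2 was the only one of the 7 with averages above total RNA in both compartments. It averaged 1.07 ± 0.12 in cytoplasmic IP (edgeR adjusted p = 7.2e-07) and 1.08 ± 0.12 in nuclear IP (adjusted p = 8.8e-07) over total RNA. Nuclear over cytoplasmic IP was 0.01 ± 0.12 (95% interval -0.23 to 0.24, adjusted p = 0.98). Mean total RNA of this cluster was 9.02 CPM, and IgG exceeded it in both compartments. Cytoplasmic IgG held 10.8 CPM, from 5 counts, and nuclear IgG 14.7 CPM. In ob/ob alone the mean log2 ratio to total RNA was 0.33 in cytoplasmic and 0.31 in nuclear IP. By library size these ob/ob means were -0.14 and 0.07.

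**Figure D3:**
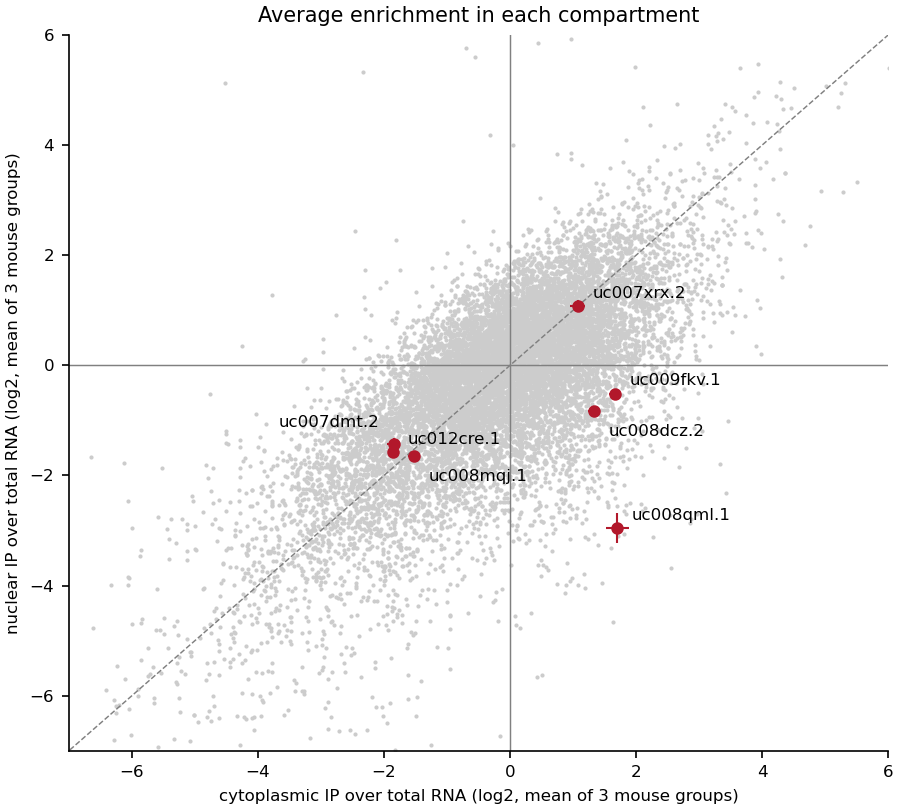
Average log2 IP over total RNA of the 3 mouse groups, cytoplasmic on the horizontal and nuclear on the vertical axis; grey points are the 13516 clusters tested (167 lie outside the axes, which run from -7 to 6), red points are the 7 clusters with their SE, and the dashed line marks equal values. uc009fkv.1, uc008dcz.2 and uc008qml.1 lie right of 0 and below 0, uc007xrx.2 lies on the dashed line above 0, and the other 3 lie below 0 on both axes.

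The cytoplasmic IP levels themselves, without total RNA, are compared here as values only, since the selection could rest on either compartment. For ob/ob against wild type, where edgeR called 12.8% of all clusters, the log2 differences were 0.36 ± 0.16 (SE) in uc008mqj.1, 0.38 ± 0.16 in uc009fkv.1, 0.20 ± 0.18 in uc007dmt.2 and 0.81 ± 0.16 in uc008dcz.2. They were 0.88 ± 0.31 in uc008qml.1, -0.21 ± 0.21 in uc007xrx.2 and -1.42 ± 0.15 in uc012cre.1. For high-fat diet, where edgeR called 1.85% of clusters, they were 0.16 ± 0.16 in uc008mqj.1, 0.46 ± 0.16 in uc009fkv.1, 0.15 ± 0.19 in uc007dmt.2 and 0.69 ± 0.16 in uc008dcz.2. The others had 1.17 ± 0.31 in uc008qml.1, 0.85 ± 0.21 in uc007xrx.2 and -0.22 ± 0.15 in uc012cre.1. Cluster uc007xrx.2 was thus high on high-fat diet and not in ob/ob, while uc012cre.1 was low in ob/ob. Without high-fat diet cytoplasmic replicate 2 the high-fat diet differences of uc008mqj.1, uc009fkv.1 and uc007dmt.2 were 0.10, 0.41 and 0.33, and that of uc007xrx.2 was 1.12. Without replicate 1, the unit that moved it most, the difference of uc007xrx.2 was 0.58. In deposited TPM its high-fat diet units were at 38.2 and 20.87, and its wild-type units at 20.21 and 15.28.

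The IgG libraries recovered all 7 clusters, and several at levels as high as hnRNPK IP. Cluster uc012cre.1 had 135 CPM in cytoplasmic and 145 CPM in nuclear IgG (exact 95% Poisson intervals 103 to 172 and 134 to 157, counting error only), and every one of its 12 IP units was lower. Cluster uc007dmt.2 had 26.2 CPM in nuclear IgG (21.6 to 31.5), above all 6 nuclear IP units, and 10.8 CPM in cytoplasmic IgG, from 5 counts. Cluster uc008mqj.1 had 132 CPM in cytoplasmic IgG (101 to 170.0), above all 6 cytoplasmic IP units. In nuclear IgG it had 87.3 CPM (78.7 to 96.6), which lay between the wild-type IP units, both lower, and the 4 obese IP units, all higher. The ratio of IP to nuclear IgG in this cluster was 0.579 and 0.495 in wild type, 1.52 and 1.48 on high-fat diet and 1.36 and 1.37 in ob/ob, and with scaling by library size only the 2 ob/ob units remained above 1.

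Clusters uc009fkv.1, uc008dcz.2, uc008qml.1 and uc007xrx.2 had all 6 cytoplasmic IP units above IgG, as did 46% of all clusters. The IgG levels were 49.9, 39.0, 13.0 and 10.8 CPM in that order. Under scaling by library size, all 6 units of uc008qml.1 were still above IgG, but 4, 4 and 2 of 6 units in uc009fkv.1, uc008dcz.2 and uc007xrx.2, and 29.1% of all clusters had all 6. No cluster had all 6 nuclear IP units above IgG, where 24% of all clusters had. In nuclear IP, uc009fkv.1 exceeded its IgG level of 15.0 CPM in the 4 obese units, and uc008dcz.2 exceeded 21.5 CPM only in the 2 high-fat diet units. Cluster uc007xrx.2 exceeded its nuclear IgG level of 14.7 CPM in wild type and on high-fat diet but not in ob/ob. Cluster uc008qml.1 had 1.17 CPM in nuclear IgG, from 5 counts, and exceeded it in both ob/ob units and in high-fat diet replicate 1. Under scaling by library size, 1, 0, 1 and 3 of 6 nuclear units of uc009fkv.1, uc008dcz.2, uc007xrx.2 and uc008qml.1 were above IgG, and 3.72% of all clusters had all 6 above it. With 1 IgG library per compartment, made from mixed mice, the spread of these levels is unknown and no test was made.

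The transcript that carried the counts of uc012cre.1 was not the same in total RNA and in IP. The cluster holds uc012cre.1, of 1843 nt, and uc012crf.1, of 1450 nt. In total RNA the first took 99.7% to 100.0% of the counts in all 6 units. Its share of cytoplasmic IP counts was 4.21% to 19.9% and of nuclear IP counts 3.70% to 24.4%, and uc012crf.1 took the rest. By level, uc012crf.1 had 0.0747 to 0.736 CPM in total RNA. It had 24.7 to 67.9 CPM in cytoplasmic and 41.7 to 83.2 CPM in nuclear IP, so this transcript was far above its total RNA level. In the IgG libraries uc012crf.1 took 57.4% of the cytoplasmic and 91.4% of the nuclear counts. Its IgG levels, 77.2 CPM in the cytoplasm and 133 CPM in the nucleus, were above every hnRNPK IP unit of the same compartment. The lower IP level in ob/ob was mostly carried by uc012crf.1, with 27.8 and 24.7 CPM in cytoplasmic IP of ob/ob against 64.8 and 67.9 CPM in wild type, and 41.7 and 44.8 CPM in nuclear IP against 83.2 and 71.3 CPM. The longer transcript was also lower in nuclear IP of ob/ob, at 1.6 and 1.76 CPM against 3.23 and 4.81 CPM in wild type. The IP over total RNA ratio of this cluster therefore sets 2 different transcripts against each other. A change of the leading transcript between total RNA and IP was common: it occurred in 46.9% of 7207 clusters with several transcripts in cytoplasmic IP and in 51.9% of 6898 in nuclear IP, counting those with at least 100 pooled counts on each side. The share lost by the leading transcript, 88.4 and 93.6 percentage points in uc012cre.1, was larger than in 93.7% and 94.6% of these clusters.

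In cluster uc008mqj.1 the leading transcript stayed first in IP but took a smaller share, by 11.8 percentage points in cytoplasmic and 35.6 in nuclear IP. These drops were larger than in 48.8% and 51.9% of clusters, so near the middle. The cluster lists 5 transcripts, and in total RNA uc008mqj.1, of 5177 nt, took 82.4% to 92.1% of the counts and uc008mqk.1, of 2690 nt, nearly all the rest. A short transcript, uc008mqm.1 of 1274 nt, had 0.63 counts summed over all total RNA units. Its share of the cluster's counts was 13.2% to 20.3% in the cytoplasmic IP units and 26.8% to 49.8% in the nuclear ones. In nuclear IgG it took 21.5%. Both transcripts were higher in nuclear IP of obese mice. The long one had 29.7 and 27.7 CPM in wild type, 66.8 and 53.1 CPM on high-fat diet and 57.6 and 66.3 CPM in ob/ob. Nuclear IgG held 67.5 CPM of the long one, so none of its nuclear IP units was above IgG. Of the short one, nuclear IgG held 18.8 CPM, above the wild-type units and below the obese ones. The short one had 17.2 and 14 CPM in wild type, 63.0 and 56.3 CPM on high-fat diet and 59.2 and 32.0 CPM in ob/ob, while in ob/ob replicate 2 another short transcript, uc008mql.1, took 14.7% of the counts. RSEM divides reads that fit several transcripts, so these shares are estimates.

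**Figure D4:**
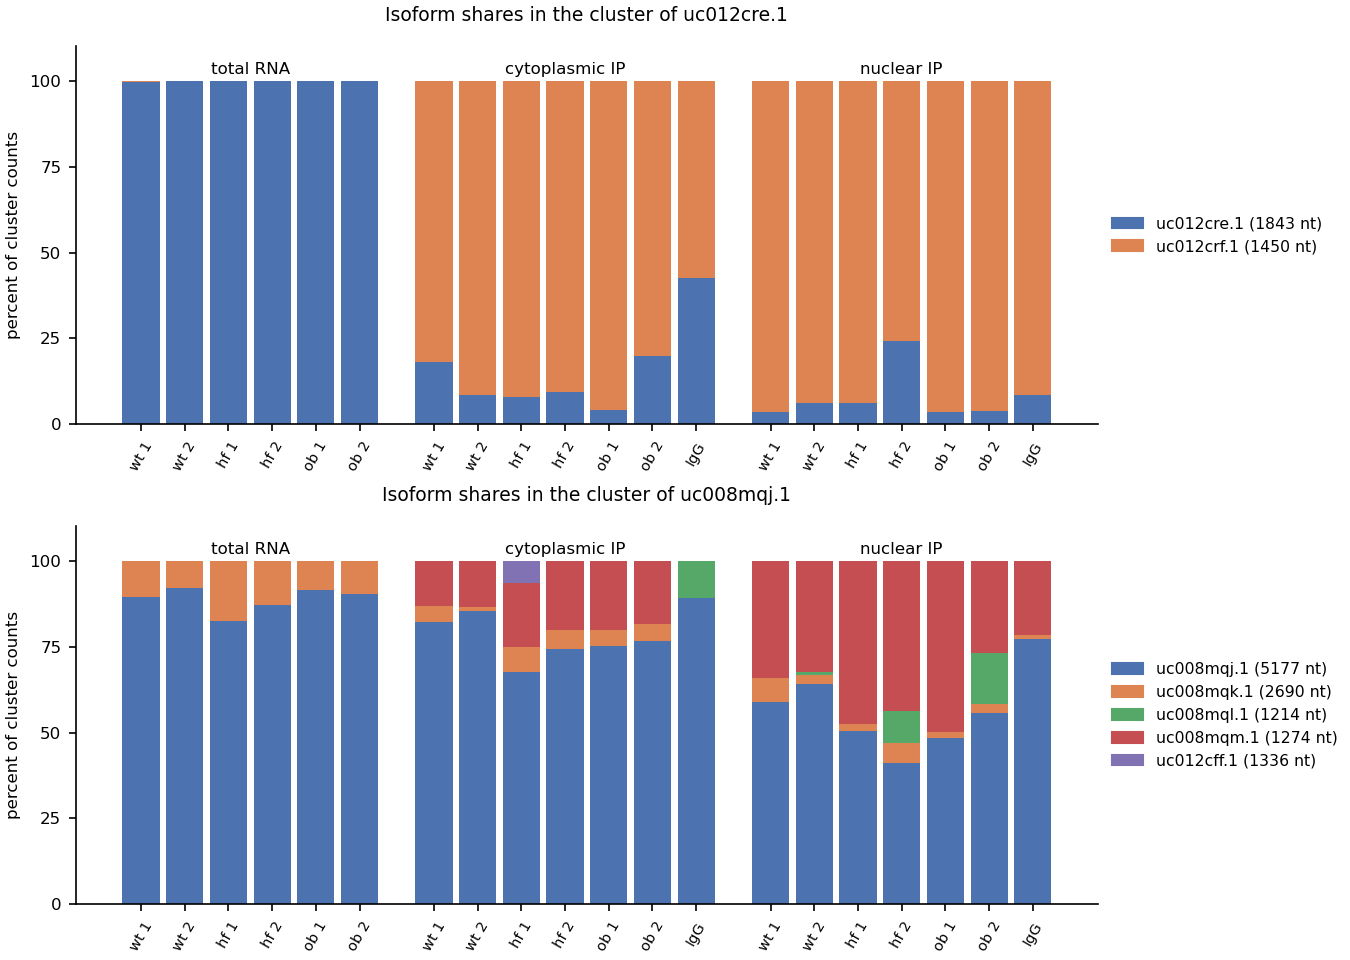
Share of each transcript among the counts of its cluster, in percent on an axis from 0, for every unit of total RNA, cytoplasmic IP and nuclear IP and the IgG libraries (wt, wild type; hf, high-fat diet; ob, ob/ob; the number is the replicate). In the upper panel uc012cre.1 fills the total RNA bars and uc012crf.1 at least 75.6% of each IP bar, and in the lower panel uc008mqm.1 takes 13.2% to 49.8% of each IP bar and has 0.63 counts in all of total RNA.

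The other 5 clusters also kept their leading transcript. Clusters uc009fkv.1 and uc008qml.1 list a single transcript, and uc007xrx.2 had 99.9% to 100% of its counts in its main transcript in every fraction. In uc008dcz.2 the main transcript, of 2661 nt, held 91.0% to 93.6% of total RNA counts. Its share was 84.3% to 93.2% in cytoplasmic and 88.1% to 100% in nuclear IP. In uc007dmt.2 the main transcript, of 1405 nt, held 89.9% to 94.2% in total RNA and 94.2% to 100% in IP, and the longer uc007dmv.1, with 4.09% to 7.14% of total RNA counts, had 1.04 counts in cytoplasmic and 2.02 in nuclear IP summed over the 6 units. Cluster counts of uc008qml.1 were whole numbers (within 0.005) in 1 of 26 libraries, so reads of this cluster were also assigned to transcripts of other clusters, and its level is uncertain to that extent. Those of uc009fkv.1, also a single transcript, were whole in 22 libraries. In clusters with several transcripts, a sum of rounded values can miss the 0.005 by rounding alone, as 667.01 in uc008mqj.1 shows. Their numbers of libraries with whole counts are thus not comparable with those of single transcripts. They were 24 in uc007xrx.2, 19 in uc008dcz.2, 15 in uc007dmt.2, 8 in uc012cre.1 and 6 in uc008mqj.1.

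Across the 18 units, uc008dcz.2 and uc009fkv.1 were the most alike pair of the 7, with Pearson's r of 0.971 on log2 CPM, followed by uc007dmt.2 and uc008mqj.1 at 0.913. The least alike were uc007dmt.2 and uc007xrx.2, at -0.720. These correlations mainly carry the differences between total RNA and the IP fractions and share the same libraries. Outside the 7, the cluster most like uc008mqj.1 was uc008vmt.1 (r of 0.965), that most like uc009fkv.1 was uc009gmt.1 (0.975) and that most like uc008dcz.2 was uc009afd.2 (0.977). For uc007dmt.2 it was uc008lte.2 (0.959), for uc008qml.1 uc012dmk.1 (0.925), for uc007xrx.2 uc008ljf.2 (0.907) and for uc012cre.1 uc008rjq.2 (0.961). Of 14 clusters with adjacent numbers, 1 had all 4 obese nuclear IP units above both wild-type units. This was uc007dmw.2, next to uc007dmt.2, with 0.54 and 0.36 CPM in wild type, 1.81 and 0.91 CPM on high-fat diet and 1.6 and 1.82 CPM in ob/ob, from 3 to 14 counts a unit. No nuclear IP counts fell to uc008mqn.1, uc009fkw.1, uc012avx.1 or uc012crd.1, and none to uc007xrw.1 in obese mice. These neighbours could not show that arrangement, so the 1 of 14 does not compare neighbours with the 7 clusters. How often all clusters were so arranged by nuclear IP level is not given here. Cluster uc008mqi.2, next to uc008mqj.1, had 455 and 469.6 CPM in nuclear IP of wild type, 429 and 441 CPM on high-fat diet and 388 and 458 CPM in ob/ob, so no obese unit was above both wild-type units. Cluster uc008dcy.2, next to uc008dcz.2, had 15.9 and 19.2 CPM in wild type, 18.1 and 19.5 CPM on high-fat diet and 21.0 and 12.5 CPM in ob/ob, with the groups overlapping.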

How the data were processed

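Each deposited table lists transcripts with an expected count, a TPM and an isoform percent. The authors made these expected counts, TPM and percent values with RSEM (version 1.2.8). Also named in the submitters' processing notes are TopHat2 2.0.10, Bowtie2 2.1.0, bcl2fastq, SAMtools and the build mm10. The sources used here do not give strandedness, so antisense partners cannot be told apart. Expected counts were summed over the 59121 transcripts to 31469 clusters and rounded. The deposited TPM served to compare levels between clusters and the deposited percent of isoforms was not used for any test.

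edgeR 4.0.16 (R 4.3.3, limma 3.58.1) was fitted to 18 units in 9 groups by quasi-likelihood. TMM set the scaling and filterByExpr the filter, and p-values of 13516 clusters were adjusted by Benjamini-Hochberg, with a threshold of 0.05. The SE is the absolute log2 difference divided by the square root of F, and 95% intervals use 1.96 SE. Log2 ratios per unit used a prior count of 1. DESeq2 1.42.0 was an alternative, with other scalings, filters, the replicate block and leaving out each unit. The steps were tested on simulated counts.

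The 7 clusters, the lists and the tests were chosen with earlier results of these data known. Named beside them are the cluster most alike each by Pearson's r over the 18 units, and clusters with adjacent numbers. The 2 total RNA libraries per replicate number were taken as repeats of 1 sample, which the labels do not state. Whether replicates are separate animals is also not stated: p-values cover the spread of the libraries at hand, possibly only technical. The IgG libraries were named by their titles, although another label calls their RNA hnRNPK-bound, and entered no fit. Intervals on counts cover counting error only, since reads carry no molecular identifiers. Differences between mouse groups are given with no test, also those in cytoplasmic IP for which a test had been planned in 3 clusters, because the selection could rest on either compartment.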

Additional observations from a re-analysis of the deposited data

Results flagged for a closer look

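The differences in nuclear IP over total RNA between an obese group and wild type that passed edgeR's adjusted p of 0.05 were 1.61 (log2) in uc008mqj.1 and 5.08 in uc008qml.1 for ob/ob, and 1.55 in uc008mqj.1, 1.71 in uc009fkv.1, 1.71 in uc008dcz.2 and 1.56 in uc007dmt.2 for high-fat diet. They are differences between mouse groups under the same IP over total contrast. They also chose the clusters, so they stand as a description.

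Nuclear IP over total RNA of uc009fkv.1 had opposite signs in 2 mouse groups, with a mean log2 ratio of -1.29 in wild type and 0.44 on high-fat diet, both units of each group lying on the same side of 0. The opposite sign was not tested, and under scaling by library size the high-fat diet mean was -0.28. No group had enough units for a check of single outlying samples.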

How the results depend on the processing

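The tested averages over mouse groups kept their direction and their side of the threshold under every alternative, apart from nuclear over cytoplasmic IP, where the call of uc012cre.1 was lost once, as given above, and the values of uc008mqj.1 and uc007xrx.2, which passed under none, changed sign. Counts of clusters called between mouse groups varied widely. For ob/ob minus wild type in cytoplasmic IP over total RNA, 1 cluster was called, against 2 with DESeq2 size factors, 400 with DESeq2, 897 with each library as its own replicate and 1 to 20 leaving out 1 unit. For high-fat diet in cytoplasmic IP over total RNA, 1 was called, against 233 with DESeq2, 2 without the low-count filter, 505 with each library as its own replicate and 1 to 2 leaving out 1 unit. For ob/ob in nuclear IP over total RNA, 2 were called, against 0 by library size, 343 with DESeq2, 833 with each library as its own replicate and 0 to 4 leaving out 1 unit. For high-fat diet in nuclear IP over total RNA, 4 were called, against 0 by library size, 242 with DESeq2, 10 without the low-count filter, 482 with each library as its own replicate and 0 to 8 leaving out 1 unit. Unadjusted p-values under 0.05 by edgeR numbered 1668, 1336, 1692 and 1426 in these 4 differences. In cytoplasmic IP, ob/ob against wild type gave 1726 calls, against 614 by library size, 2920 with each library as its own replicate and 375 to 1799 leaving out 1 unit. High-fat diet against wild type gave 250, against 23 by library size, 1093 with DESeq2, 1230 with each library as its own replicate and 10 to 377 leaving out 1 unit. The cause of these shifts was not tested.

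Scaling by library size turned the split of calls in cytoplasmic IP over total RNA from 4860 higher and 5570 lower to 2920 and 7321, that in nuclear IP over total RNA from 4354 and 5740 to 2855 and 6987, and that in nuclear over cytoplasmic IP from 4192 and 4543 to 4542 and 3645. The replicate numbers were not taken to pair the samples, because not every pair correlated above 0.1: deviations of same-numbered units correlated at 0.35 to 0.41 in wild type and 0.26 to 0.32 in ob/ob, but at -0.12 to 0.09 on high-fat diet. With the replicate block, 32 clusters were called for ob/ob in cytoplasmic, 7 for ob/ob in nuclear and 17 for high-fat diet in nuclear IP over total RNA. Depth limits uc008qml.1 in nuclear IP and every cluster in cytoplasmic IgG.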
